A study of Mus musculus with 3 samples.

Results

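The nicotinic acetylcholine receptor of muscle and the proteins that gather it beneath the motor nerve were followed here through 10 genes, found in the deposited counts by their symbols. All 10 were listed in each of the 3 libraries, among 23238 gene symbols in all. They comprise the receptor subunit genes Chrna1, Chrnb1, Chrnd, Chrng and Chrne, the genes of the signal that clusters the receptor (Agrn, Lrp4, Musk and Dok7), and Rapsn, the gene of the scaffold rapsyn. RNA was from the c2c12 line, immortalized mouse myoblasts that fuse into myotubes when serum is lowered, and each substrate was represented by a single library. The TCP library was from cells on a tissue culture plate, the GelMA library from cells on a hydrogel of 15% methacrylated gelatin, and the GelMA-PSS library from cells on the same hydrogel with 1% poly(sodium 4-styrenesulfonate), a sulfonated polymer that mimics heparin. All 3 cultures had the same medium with 2% horse serum for 2 days, and they were of 1 cell line, without nerve. With 1 culture sequenced per substrate, no p-value could be given, and differences between cultures of the same substrate were not measured.

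The receptor is a pentamer in the muscle membrane that opens on binding acetylcholine. Embryonic and denervated muscle assembles it with the γ subunit, encoded by Chrng, which is replaced by the ε subunit, encoded by Chrne, as the endplate matures. Agrin, released by the nerve and also made by muscle, binds the receptor LRP4, which activates the kinase MuSK together with its adaptor Dok-7, and rapsyn then anchors the receptors in clusters. Myogenic factors such as MyoD and myogenin switch on the subunit genes as myoblasts differentiate, through DNA elements called E-boxes.

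The genes are spread over 5 mouse chromosomes (GRCm38, GENCODE vM21). Chrnd (chr1:87190607-87200070) and Chrng (chr1:87204657-87212694) are neighbours in the same orientation, 4586 bases apart. Chrnb1 (chr11:69784036-69795943) and Chrne (chr11:70614883-70619216) share chromosome 11, and Chrna1 (chr2:73563215-73580338), Rapsn (chr2:91035620-91045729) and Lrp4 (chr2:91457511-91513779) share chromosome 2. Musk (chr4:58285960-58374303) and Agrn (chr4:156165290-156197488) are on chromosome 4, and Dok7 (chr5:35056766-35087839) is on chromosome 5. Chrne overlaps 4930544D05Rik on the opposite strand with no shared exon bases, and Rapsn shares 4 exon bases with Gm13778, which is not listed in the counts.

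The sequences before the start sites of 4 members are shown because these genes gave the contrasts described below, namely the abundant Chrna1 and Chrng, the scarce Chrne, and Musk, which differed between the gels. Each line is the 250 bases before the RefSeq start (GRCm38.p6), read on the strand of the gene. The RefSeq start of Chrng lies inside the gene as GENCODE draws it. Capitals mark E-boxes (CANNTG, a motif that reads the same on both strands) and, in Chrne alone among the 4, the N-box CCGGAA, which is bound by ETS factors and was searched on both strands.
Chrna1 (chr2:73580339-73580588, minus strand): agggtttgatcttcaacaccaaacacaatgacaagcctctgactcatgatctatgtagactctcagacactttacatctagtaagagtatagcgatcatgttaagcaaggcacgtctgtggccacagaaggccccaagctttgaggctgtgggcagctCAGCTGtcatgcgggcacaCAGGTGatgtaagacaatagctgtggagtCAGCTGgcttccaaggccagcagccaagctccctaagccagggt
Chrng (chr1:87205561-87205810, plus strand): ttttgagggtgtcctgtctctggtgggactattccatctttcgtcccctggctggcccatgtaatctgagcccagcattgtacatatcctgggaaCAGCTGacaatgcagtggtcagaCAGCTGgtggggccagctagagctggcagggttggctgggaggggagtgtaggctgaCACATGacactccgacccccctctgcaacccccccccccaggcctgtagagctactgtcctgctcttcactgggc
Chrne (chr11:70619195-70619444, minus strand): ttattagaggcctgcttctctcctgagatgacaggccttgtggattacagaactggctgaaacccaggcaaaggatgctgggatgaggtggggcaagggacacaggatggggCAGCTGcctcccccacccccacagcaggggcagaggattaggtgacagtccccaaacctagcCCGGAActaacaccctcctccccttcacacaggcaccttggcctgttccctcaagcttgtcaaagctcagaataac
Musk (chr4:58285712-58285961, plus strand): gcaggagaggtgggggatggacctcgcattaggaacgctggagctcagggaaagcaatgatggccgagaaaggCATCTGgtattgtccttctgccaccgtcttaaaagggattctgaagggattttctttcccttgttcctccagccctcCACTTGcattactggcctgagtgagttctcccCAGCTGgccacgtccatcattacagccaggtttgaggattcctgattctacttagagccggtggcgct

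Chrna1, Chrng and Musk each held 3 E-boxes in this window, as did Chrnb1, whereas Chrne held 1. The spelling CAGCTG occurred 2 times before Chrna1, starting 92 and 44 bases before the start, and 2 times before Chrng, starting 155 and 132 bases before it. Of all 32851 windows of this length, 66.2% held at least 1 E-box and 12.2% held 3 or more, 13.0% held CAGCTG and 1.26% held it 2 times or more. The N-box of Chrne began 76 bases before the start, and 12.0% of windows held an N-box. Dok7 had 1 E-box in its first window and 0 in its second, and Agrn had 0 and 1. Windows for Chrnd, Lrp4 and Rapsn were not used here. These matches describe letters in the sequence, and binding of a factor was not measured.

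Across the libraries, the receptor genes were among the abundant transcripts of these cells. Levels are given as CPM, the counts of a gene relative to the library total, scaled with TMM factors that allow for differences in composition between libraries. Their intervals are by the Wilson method at 95% and reflect counting error only. Chrna1, which encodes the α subunit that binds acetylcholine, had a CPM of 1818 on TCP, 1343 on GelMA and 1423 on GelMA-PSS, the 40th, 61st and 84th highest of all genes in these libraries. Its level on GelMA-PSS therefore lay between the controls, closer to GelMA. Chrng had a CPM of 819 on TCP, 558 on GelMA and 552 on GelMA-PSS. Chrnd, of the δ subunit, had 447, 342 and 308 in the same order, and Chrnb1, of the β subunit, had 384, 244 and 241. All 4 of these genes were highest on TCP, and the 2 gels lay closer to each other than either lay to TCP.

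Chrne stood far below the other subunits. It had 111 counts on TCP, 73 on GelMA and 48 on GelMA-PSS, or a CPM of 0.912 (interval from 0.757 to 1.10), 0.803 (from 0.639 to 1.01) and 0.265 (from 0.200 to 0.351). These counts are above the floor of 3 counts but below a CPM of 1 in every library, so Chrne was the 1 member that did not pass the filter for the comparisons across all genes. On the scale of counts it was 3.03 times lower on GelMA-PSS than on GelMA (interval from 2.08 to 4.46) and 3.44 times lower than on TCP (from 2.43 to 4.93), while the interval for GelMA against TCP included equality. As a share of the counts of Chrng and Chrne together, Chrne made up 0.111% on TCP (Wilson interval from 0.0923% to 0.134%), 0.144% on GelMA (from 0.114% to 0.181%) and 0.0480% on GelMA-PSS (from 0.0362% to 0.0636%). Per kilobase of transcript, Chrng exceeded Chrne by 523 times on TCP, 404 times on GelMA and 1211 times on GelMA-PSS. With the length of the union of all exons of each gene, these values were 365, 282 and 846. In all 3 libraries the transcripts were thus nearly all of the embryonic subunit.

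Among the clustering genes, Rapsn was the most abundant on the scale of CPM per kilobase, followed by Lrp4. Rapsn had a CPM of 199 on TCP, 147 on GelMA and 147 on GelMA-PSS, a step between TCP and the gels like that of the subunits. Lrp4, which encodes the agrin receptor of the low-density lipoprotein receptor family, had 267 on TCP, 232 on GelMA and 109 on GelMA-PSS. Musk had 70.5, 75.6 and 36.9 in the same order. For Lrp4 and Musk the controls lay close together and GelMA-PSS stood well below both.

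Dok7, the cytoplasmic activator of MuSK, had a CPM of 40.9 on TCP, 38.9 on GelMA and 28.7 on GelMA-PSS. Agrn, whose protein is the agrin proteoglycan, had 40.2, 48.0 and 34.8. Counts per gene do not separate the splice forms of agrin made by nerve and by muscle. Both genes were lowest on GelMA-PSS, as 39.3% of all genes were. Their counting intervals there did not overlap those of the controls, but how often this held over all genes was not counted. With the length and GC correction described below, Agrn was higher on GelMA-PSS, with log2 ratios of 0.16 to GelMA and 0.26 to TCP.

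**Figure D1:**
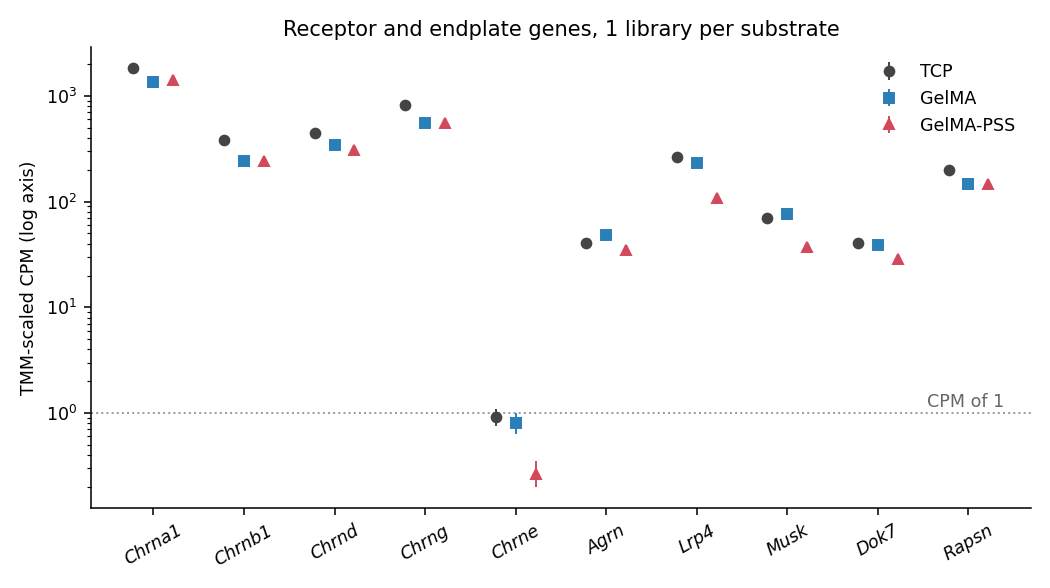
TMM-scaled CPM of the 10 genes (log axis) in the TCP, GelMA and GelMA-PSS libraries, 1 point per library, with 95% Wilson intervals that are smaller than the symbols for all genes but Chrne. The 4 abundant subunits and Rapsn are highest on TCP, Lrp4 and Musk are lowest on GelMA-PSS, and Chrne lies below a CPM of 1 throughout.

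Per kilobase of transcript, which allows levels to be compared between genes, the order on TCP was Chrna1 (CPM per kilobase of 415), Chrng (295), Chrnb1 (178), Chrnd (153), Rapsn (124), Lrp4 (33.7), Musk (20.6), Dok7 (16.4), Agrn (5.83) and Chrne (0.564). On GelMA, Chrnd (117) and Chrnb1 (113) changed places, with levels that were close together. On GelMA-PSS the first 6 places were held by the same genes as on TCP, in the same order, and Dok7 (11.5) came before Musk (10.8). This last order depended on the length used, since with the union of all exons Musk (9.78) came before Dok7 (6.71). Chrna1 made up 39.8% of the summed CPM per kilobase of the 5 subunits on TCP, 41.5% on GelMA and 43.8% on GelMA-PSS, and Chrng made up 28.3%, 27.2% and 26.8%. The make-up of the subunit transcripts thus moved by a few percentage points between substrates.

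The comparison of the controls asks what the hydrogel without PSS did. On GelMA, Chrna1 was at 73.9% of its level on TCP (95% interval of the ratio from 0.734 to 0.744), Chrnd at 76.4%, Chrng at 68.1%, Chrnb1 at 63.5% and Rapsn at 73.9%. Lrp4 and Dok7 were at 87.0% and 95.1%. Musk and Agrn were higher on GelMA, at 107% and 120% of TCP. On the scale of log2(CPM + 1), on which all ratios below are given, 0 of 10 members passed 2-fold between the controls, against 0.706% that were higher and 0.296% that were lower on GelMA among the 13169 genes that reached a CPM of 1 in any library. With a 1.5-fold threshold Chrnb1 was lower (log2 ratio of -0.65), against 2.12% of all genes. GelMA was below TCP for 8 of the 10 members and for 51.7% of all genes. Less receptor RNA in each cell and a smaller share of differentiated cells cannot be told apart in these bulk libraries.

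Markers of muscle differentiation moved with the subunit genes between the controls. All 17 listed markers were expressed, and all 17 were lower on GelMA than on TCP, with a median log2 ratio of -0.54, against -0.50 for the 4 subunits above a CPM of 1 and -0.01 for all genes. Myh3, Myh1 and Myh8, the embryonic, fast and perinatal myosin heavy chains, were below both controls by 2-fold on GelMA-PSS, with log2 ratios to the mean control of -1.41, -1.43 and -1.62. These were 3 of the 17 markers, against 1.16% of all genes, and with the length and GC correction described below 0 of 17 passed (the 3 ratios to GelMA became -0.61, -0.62 and -0.56). The median of the 17 relative to the mean control was -0.23. Markers such as Mylpf, a fast myosin light chain (0.30), and Mymx, the fusion peptide myomixer (0.24), lay above 0. With the correction this median became -0.57, and these short transcripts were at -0.24 and -0.26. Against TCP, 4 of the 17 were lower by 2-fold on GelMA-PSS, and 6 with the correction. The shares of all genes were 3.13% and 2.4%. The summed CPM of the markers was 47149 on TCP, 33321 on GelMA and 32902 on GelMA-PSS, and the sum for these subunits was 3468, 2487 and 2525. Myog, which encodes the transcription factor myogenin, had a CPM of 1100 on TCP, 895 on GelMA and 1037 on GelMA-PSS. The part of differentiation in the subunit levels was not tested.

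The comparison of the gels asks what PSS added, and here the members fell into different ranges. Chrna1 was at 106% of its GelMA level (ratio of 1.06, interval from 1.05 to 1.07), a log2 ratio of 0.08 that became -0.06 with scaling by total counts. Chrng was at 99.0% of GelMA, Chrnb1 at 98.9%, Rapsn at 99.8% and Chrnd at 90.2%. For Chrnb1, Chrng and Rapsn the counting interval included 1 with TMM scaling. With scaling by total counts their log2 ratios were -0.16, -0.16 and -0.15, a shift larger than counting error. Whether these genes differ between the gels thus depended on the scaling. Dok7 was at 73.7% of GelMA (interval of the ratio from 0.706 to 0.770) and Agrn at 72.4% (from 0.697 to 0.753). Musk was at 48.9% (from 0.472 to 0.506) and Lrp4 at 46.8% (from 0.459 to 0.477).

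On the log2 scale these differences were -1.09 for Lrp4 and -1.01 for Musk. These 2 members were lower by more than 2-fold, against 2.33% of all genes. Chrne, below a CPM of 1, was at -0.51 on this scale, though 3.03 times lower on the scale of counts. None of the 10 was higher by 2-fold, against 1.77% of all genes. The same 2 members passed a 1.5-fold threshold, against 10.8% of all genes. The median log2 ratio was -0.29 over all 10 members and -0.15 over the 9 without Chrne, against 0.03 for all genes.

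**Figure D2:**
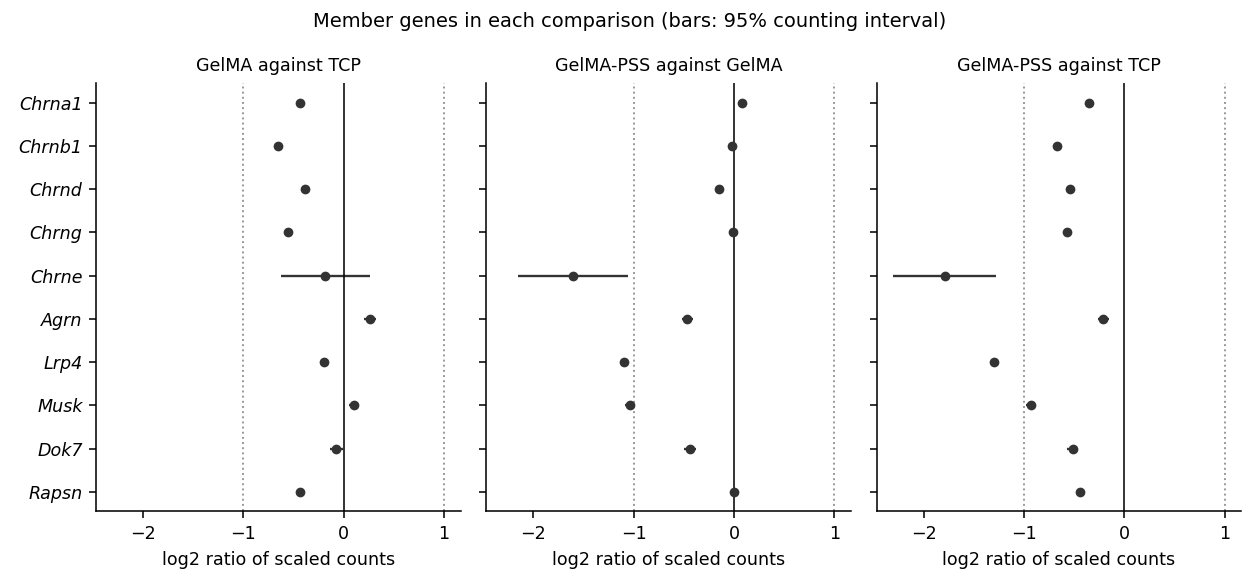
Log2 ratio of scaled counts for each gene in the 3 comparisons, which share libraries, with bars for the 95% counting interval and dotted lines at 2-fold. Chrna1, Chrnb1, Chrnd, Chrng and Rapsn lie left of 0 in GelMA against TCP and near 0 in GelMA-PSS against GelMA, where Lrp4, Musk and Chrne lie furthest to the left, at 46.8%, 48.9% and 33.0% of GelMA (ratios here have no pseudocount).

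Against TCP, every member was lower on GelMA-PSS, with a median log2 ratio of -0.55 over all 10 members, against 0.04 for all genes. The share of all genes that were lower was not counted. The interval of each ratio of the members lay below 1. These intervals cover counting error only, and how many of all genes have such an interval was not counted. Lrp4 was at 40.7% of TCP and Musk at 52.4%, and the others with a CPM above 1 ranged from 62.9% for Chrnb1 to 86.6% for Agrn. Lrp4 passed 2-fold (log2 ratio of -1.29), against 3.13% of all genes that were lower and 3.72% that were higher. At 1.5-fold, of the members above a CPM of 1, Lrp4, Musk and Chrnb1 were lower, against 11.5% of all genes. Chrne, with a log2 ratio of -0.60, is outside this count. This comparison shares its libraries with the previous ones and adds no independent evidence. For Chrna1, Chrnb1, Chrnd and Chrng most of the difference was already there between TCP and GelMA.

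On the scale of log2(CPM + 1), Lrp4 was the 1 member that passed 2-fold against both controls. Of all genes, 1.16% did so in this direction and 1.37% in the other. Chrne is outside this count, being below a CPM of 1, where the pseudocount of 1 makes ratios smaller. On the scale of counts Chrne was 3.03 times lower than on GelMA and 3.44 times lower than on TCP, past 2-fold against both. Musk missed the threshold against TCP by little, with a log2 ratio of -0.91. With a 1.5-fold threshold Lrp4 and Musk passed against both controls, against 7.18% of all genes. Without a threshold, GelMA-PSS was below both controls for 9 of 10 members and for 39.3% of all genes, and above both for 0 members and 45.3% of all genes. For Chrnb1, Chrng and Rapsn among these 9 the interval against GelMA included 1. The order TCP, GelMA, GelMA-PSS held for 7 of 10 members and 21.2% of all genes. Relative to the mean control, the 10 members had a median log2 ratio of -0.34, against 0.03 for all genes.

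Within each library, ratios between members show the same separation. The CPM of Rapsn was 0.109 times that of Chrna1 on TCP, 0.109 times on GelMA and 0.103 times on GelMA-PSS. Musk stood at 0.0388, 0.0562 and 0.0259 times Chrna1 in the same order, and Lrp4 at 0.147, 0.173 and 0.0764 times. Lrp4 relative to Musk was 3.79, 3.08 and 2.94. Rapsn and Chrna1 thus kept nearly the same proportion as counted, while Musk and Lrp4 were lower relative to Chrna1 on GelMA-PSS. These ratios do not depend on how the libraries were scaled, but they do depend on the length and GC correction given next, which moved Rapsn and Chrna1 apart (-0.22 and 0.21 against GelMA on the log2 scale).

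Transcript length moved with the GelMA-PSS library as a whole, and members differ in length. Over the 13059 genes whose length was known, the Spearman rho between length and the log2 ratio of GelMA-PSS to GelMA was -0.66, a description across genes of 1 pair of libraries. Lrp4 and Agrn have long transcripts (7926 and 6891 bases, longer than 95.3% and 92.3% of these genes), whereas Musk has 3422 bases, near the median of 2914. When length and GC content were corrected for by loess, Musk had a log2 ratio to GelMA of -0.99, almost as before. That of Lrp4 moved from -1.09 to -0.41, and that of Agrn turned from -0.45 to 0.16. Dok7 stayed at -0.43, Chrnb1 and Rapsn moved to -0.20 and -0.22, and Chrna1 moved to 0.21.

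After the correction 0 of the 9 members above a CPM of 1 passed 2-fold. The shares of genes were 1.2% lower than on GelMA, 2.4% lower than on TCP and 0.628% lower than both. Musk, at -0.99 and -0.88 against the controls, was the member nearest to the threshold against both. Of all genes, 1.27% had a lower corrected ratio to GelMA than Musk. Against TCP the corrected log2 ratio was -0.79 for Lrp4, -0.80 for Chrnb1 and 0.26 for Agrn, which had been -0.20. The ratios between the controls hardly moved for the subunits, from -0.44 to -0.46 for Chrna1 and from -0.65 to -0.61 for Chrnb1.

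**Figure D3:**
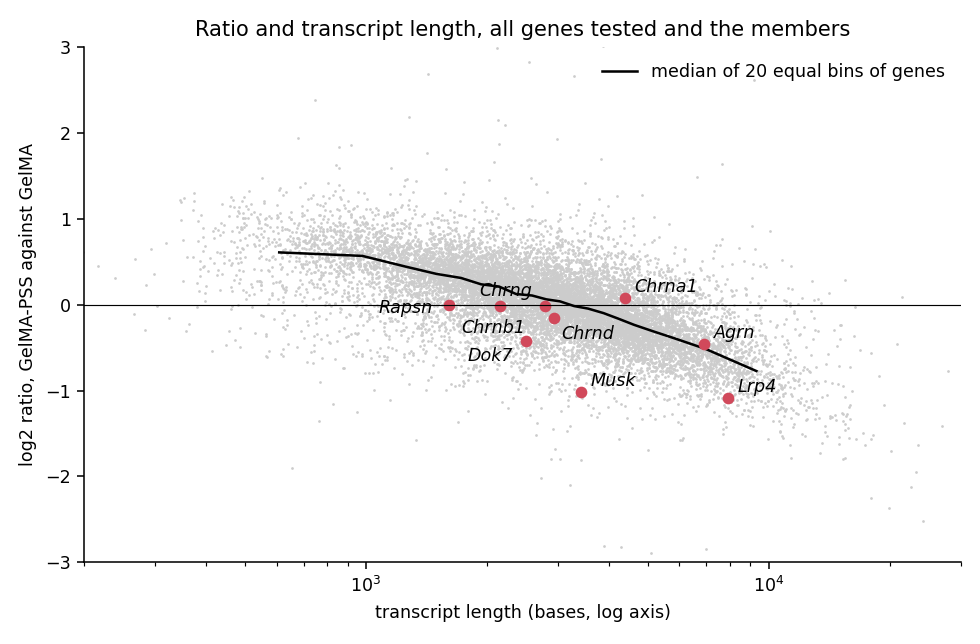
Log2 ratio of GelMA-PSS to GelMA against transcript length (log axis, bases) for all genes tested (grey, a few beyond the axis not drawn), with the median of equal bins of genes and the 9 members above a CPM of 1 in red. Agrn lies near the line, Lrp4 lies below it, and Musk lies far below it at -1.01.

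**Figure D4:**
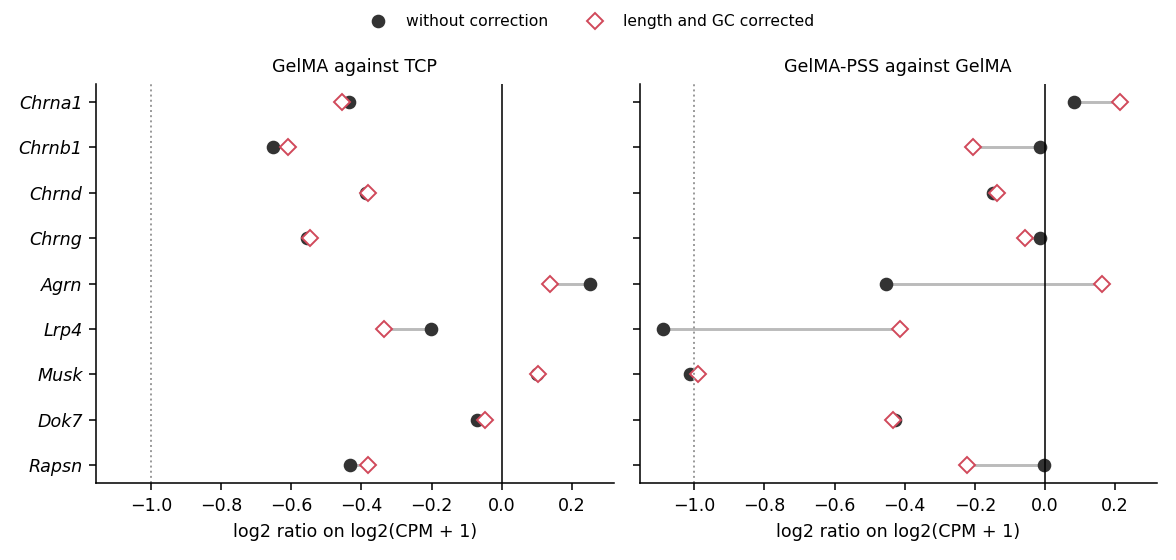
Log2 ratios of the 9 members before (filled) and after (open) the correction for transcript length and GC content, for GelMA against TCP and for GelMA-PSS against GelMA. Musk stays near -1 in the comparison of the gels, Lrp4 moves to -0.41 and Agrn crosses 0 to 0.16.

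Proteins that act downstream of MuSK, including adaptors, GTPases and Src family kinases, were followed with a list of 27 genes, all above the CPM limit. Against both controls 3 were lower and 0 higher by 2-fold, against 1.16% and 1.37% of all genes, and 0 were lower after the length and GC correction. The list had a median log2 ratio to the mean control of -0.06. The lower genes were Macf1, a linker of microtubules and actin at the synapse (-1.64), Apc (-1.17) and Abl2, an Abl family kinase that acts in agrin signalling (-1.09). The transcripts of Macf1 and Apc are long, 23495 and 12811 bases, and their corrected ratios were -0.42 and -0.40. Abl2, with 3549 bases, had a corrected ratio of -0.998, and its corrected ratio to TCP of -0.94 no longer passed 2-fold. Abl2 had a CPM of 76.9 on TCP, 84.4 on GelMA and 37.2 on GelMA-PSS, so that, as for Musk, the controls were close and GelMA-PSS was lower.

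The synaptic basal lamina and the dystroglycan complex hold the endplate together, and 14 of 15 listed genes were lower on GelMA-PSS than on both controls (39.3% of all genes were), 3 of them by 2-fold (1.16% of all genes). After the correction 1 of the 15, Col13a1, passed 2-fold. Relative to the mean control, the median of this list was -0.64 on the log2 scale, and -0.35 after the correction. Col13a1, a transmembrane collagen of the endplate, had 507 counts on TCP, 273 on GelMA and 80 on GelMA-PSS, or a CPM of 4.16, 3.00 and 0.442. Its log2 ratio was -1.66, and -1.56 after the correction. Hspg2, of the proteoglycan perlecan, and Utrn, of utrophin, were at -1.19 and -1.17, which became -0.13 and -0.36.

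Genes for synapse-specific transcription and neuregulin signaling gave 14 of 16 above the CPM limit, none of which passed 2-fold against both controls. Myf5, an early myogenic factor, was highest on GelMA-PSS, with a CPM of 13.9 on TCP, 19.5 on GelMA and 36.5 on GelMA-PSS. Erbb2, a neuregulin receptor, had 181, 134 and 83.0 in the same order, and Hdac4, a histone deacetylase that acts in denervated muscle, had 16.9, 24.5 and 9.65. Myog and Myod1 did not share the pattern of Musk. The CPM of Myod1 was 94.3 on TCP, 105 on GelMA and 119 on GelMA-PSS.

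Of 6 genes for the nuclei and cytoskeleton under the synapse, all were lower on GelMA-PSS than on both controls, as 39.3% of all genes were. Their median was -0.66 on the log2 scale, and 0.02 after the correction, when 0 passed 2-fold. Plec, of the linker plectin, was lower by 2-fold (-1.58), and Syne1 and Syne2, of the nuclear envelope proteins nesprin-1 and nesprin-2, were at -0.74 and -0.98. These transcripts have 15455, 27908 and 21690 bases, and their corrected ratios were -0.46, 0.63 and 0.22. Among 4 excitability genes, Scn4a, the sodium channel of adult muscle, had a CPM of 133 on TCP, 90.7 on GelMA and 38.0 on GelMA-PSS (log2 ratio of -1.51, corrected -1.04, and -0.70 against GelMA, which no longer passed 2-fold). Ncam1, a cell adhesion molecule of muscle and nerve, was at -0.76.

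**Figure D5:**
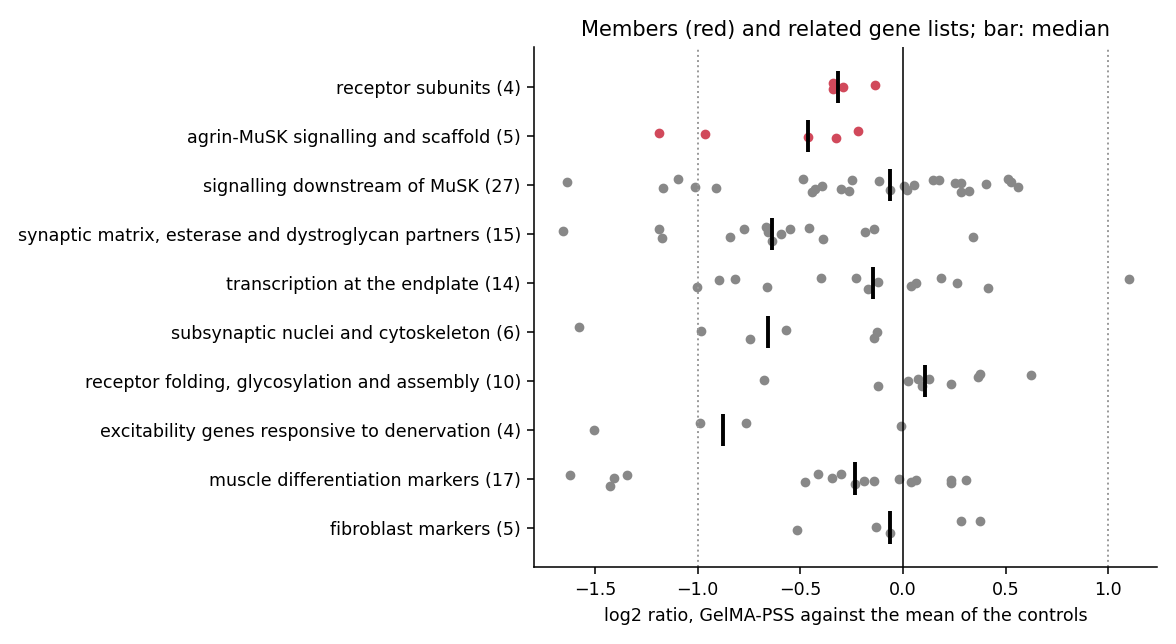
Log2 ratio of GelMA-PSS to the mean of the controls for each gene above a CPM of 1 in at least 1 library, by list (number of genes in parentheses; the Schwann cell list is not drawn), with a bar at the median and dotted lines at 2-fold. Receptor subunits lie between -0.34 and -0.13, and the agrin-MuSK genes range from -1.19 for Lrp4 to -0.22 for Rapsn.

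Markers of the other cells of an endplate were looked for in the same libraries. Of 5 motor neuron markers, 0 reached a CPM of 1, and Chat, the enzyme that makes acetylcholine, had 7, 2 and 4 counts on TCP, GelMA and GelMA-PSS. Of the Schwann cell markers, Sox10 had 2, 5 and 2 counts. All 5 fibroblast markers passed, with a summed CPM of 332, 380 and 370. Among them Col1a1 (collagen I) had a log2 ratio to the mean control of -0.52, Dcn (decorin) of 0.37 and Dpt (dermatopontin) of 0.28, which became -0.07, 0.01 and 0.0080 after the correction. The cultures were of 1 cell line, so these markers describe RNA of c2c12 cultures and do not count other cell types. Their relation to the levels of the members was not tested.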

How the data were processed

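RNA-seq counts of 3 c2c12 cultures (TCP, GelMA and GelMA-PSS, 1 library each) were used. The deposited values are raw, unnormalized counts for each gene symbol. The submitters' processing notes name TopHat, edgeR, mm10 and hg19 without their roles, and the counting tool, the annotation and the use of strand or of both reads of a pair are not given in the sources used here. The study's methods and the sample labels name different library kits. Lines sharing a symbol (35 symbols) were summed, which left 23238. Total counts were 119799095, 87071144 and 192171443.

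Counts were scaled to CPM with TMM factors (1.02, 1.04 and 0.943; edgeR 4.0.16, R 4.3.3). Log2 ratios used a pseudocount of 1 on the 13169 genes that reached a CPM of 1 in any library, and a gene was called past 2-fold, the fold given in the study's methods, with the 1.5-fold of its results text as an alternative. Ratio intervals are exact binomial intervals at 95% (scipy 1.17.1). Intervals and the floor of 3 counts cover counting error only. GENCODE vM21 (GRCm38) gave 1 transcript per gene, by the longest coding sequence, with 22197 symbols matched directly and 668 through older symbols. The correction subtracted 2 successive loess fits (span 0.3, statsmodels 0.14.6). The procedure was run on simulated Poisson counts, with and without a length trend in GelMA-PSS. These held no GC effect and no differences between cultures, so they do not test how the procedure deals with either. RefSeq windows matched 7 of 10 members.

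The members and gene lists were chosen with earlier results of these data known. All members are named. Of each list, up to 3 genes with the largest absolute log2 ratio to the mean control and those past 2-fold against both controls are named, except for some that are not reported here. Other genes of the lists (Myog, Myod1, Mylpf, Mymx, Chat, Sox10 and, in the closing section, Chrna10, Chrnb2, Chrnb4, Chrna7, Ache and Colq) were chosen after their values were seen. Alternatives covered scaling, pseudocount, filter, threshold, transcript length and the length and GC correction.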

Additional observations from a re-analysis of the deposited data

How the results depend on the processing

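With 1 library per substrate, counting error is the only error known, and it was small for all members but Chrne. The count of members past 2-fold against both controls was 2 with total counts only, when Musk joined Lrp4, 2 at 1.5-fold and 0 with the length and GC correction. Against TCP it was 2 with total counts only, 3 at 1.5-fold and 0 with the correction, against GelMA it was 0 with the correction, and between the controls it was 1 at 1.5-fold. Relative to the mean control, the 9 members above a CPM of 1 had a median log2 ratio of -0.34, which became -0.47 with total counts only, when the median of all genes was -0.08, and -0.41 with the correction. Median-of-ratios scaling, a pseudocount of 0.1 and no filter, each changed alone, left each of these counts as it was. For Chrne these settings cannot decide. The smaller pseudocount was used with the filter that leaves Chrne out, and no filter was used with a pseudocount of 1. On the scale of counts Chrne was 3.03 times lower than on GelMA and 3.44 times lower than on TCP. Of 36 single ratios, the correction turned the sign of 3, all of Agrn, and total counts only turned 1, Chrna1 against GelMA (from 0.08 to -0.06). Whether read pairs were counted once is not known, and otherwise the intervals are too narrow. With counts halved, those without 1 numbered 7 of 10 for GelMA-PSS against GelMA, as before, and 8 in place of 9 for GelMA against TCP. Such intervals were not counted over all genes. No paired analysis was possible because each substrate has 1 library.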

Other observations

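Subunits of nicotinic receptors outside muscle were nearly silent. Of 11 listed genes, 0 reached a CPM of 1 in any library. Chrna10 had a CPM of 0.731 on TCP, 0.462 on GelMA and 0.270 on GelMA-PSS, Chrnb2 had 0.690, 0.704 and 0.541, and Chrnb4 had 0.542, 0.561 and 0.276. Chrna7, of the α7 receptor of neurons, had 1, 2 and 0 counts.

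Genes that fold, glycosylate and assemble receptor subunits gave 10 of 12 above the CPM limit, with 0 past 2-fold against both controls in either direction and a median of 0.11 (log2 ratio to the mean control). Gfpt1, the first enzyme of hexosamine synthesis and a gene of congenital myasthenia, was the lowest at -0.68, and -0.84 after the length and GC correction. Its CPM was 71.0 on TCP, 74.4 on GelMA and 45.1 on GelMA-PSS. Unc50 and Alg14 were the highest, at 0.62 and 0.37, and 0.26 and 0.09 after the correction.

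Acetylcholinesterase and its collagen tail were expressed at low levels. Ache had a CPM of 3.42 on TCP, 2.73 on GelMA and 1.77 on GelMA-PSS. Colq had 11.9, 6.02 and 4.54, so that the larger step was between TCP and GelMA.

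The genes whose pair of log2 ratios (GelMA and GelMA-PSS, each against TCP) lay closest to that of Chrna1, among the 8764 genes that reached a CPM of 10 in every library, were Stau2, Renbp and Islr, at Euclidean distances of 0.018, 0.020 and 0.023. For Agrn they were Scaf11, Specc1 and Arhgap5, at 0.0019, 0.0058 and 0.015. Within a distance of 0.1 there were 61 genes for Chrna1 and 128 for Agrn, of the 8764 compared. The genes named are thus the nearest of many with a similar pattern over 3 libraries.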
